A study of Mus musculus with 6 samples.

Results

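The genes described here are the secreted and membrane-bound matrix proteases of the Mmp and Adamts families and their inhibitors, the Timps, in ADC106, a mouse angiosarcoma cell line. They were chosen by symbol, with earlier results of these data known. The rule took protein-coding genes named Mmp plus a number (a trailing letter was allowed), Adamts plus a number, or Timp1 to Timp4. The rule found 45 of the 55401 genes in the count table, namely 22 Mmp, 19 Adamts and 4 Timp genes. Mmp1a is annotated as a polymorphic pseudogene and was left out by the rule.

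Poly(A) RNA was sequenced from cells given a microRNA mimic, a synthetic duplex that loads a chosen microRNA strand into Argonaute. One group received 12.5 nM of a mimic labelled NC (genotype label WT) and the other 12.5 nM of miR-497 mimic (genotype label miR-497 overexpression), and RNA was taken on day 3 after transfection. Each group had 3 libraries, all from the same tumour line, and nothing in the labels says whether the 3 came from separate cultures, so p-values measure only the spread between these libraries, which may be technical. Untransfected cells were not analysed here.

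Matrix metalloproteases (MMPs) are zinc enzymes that cut collagens, laminins and other matrix proteins. They are made as inactive precursors, and their prodomain has to be removed or displaced before they act. ADAMTS proteases carry thrombospondin repeats and cut proteoglycans such as versican and aggrecan, the ends of procollagens, or von Willebrand factor. TIMPs bind the active sites of MMPs, and those of ADAMTS proteases to an extent that differs between the TIMPs. TIMP2 also holds pro-MMP2 on the cell surface next to MMP14, which activates it. In endothelial cells this system is known for its part in sprouting, in shedding of surface receptors and in remodelling of the basement membrane.

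miR-497-5p pairs with transcripts through its seed, and only some of the proteases carry a match to it. The mouse strand is shown to make the matches below readable. It is printed from the RefSeq entry for miR-497a-5p (GRCm38.p6, chr11:70234730-70234751, plus strand), with bases 2 to 8, the seed, in capitals:
miR-497a-5p: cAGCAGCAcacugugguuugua

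A match was TGCTGCT (7mer-m8), GCTGCTA (7mer-A1) or TGCTGCTA (8mer), read on the sense strand of the longest annotated 3′ UTR. The tested members with a match are listed with the 14 bases before it. The match is in capitals, and coordinates are for GRCm38:
Adamts4 (chr1:171259937-171259957, plus strand): caaggaatggcagcTGCTGCT
Adamts5 (chr16:85862063-85862083, minus strand): ggaaattaagaactTGCTGCT
Adamts12 (chr15:11349102-11349122, plus strand): ccatgtttctgcacTGCTGCT
Adamts14 (chr10:61197890-61197910, minus strand): cttgtcagctgatgGCTGCTA
Mmp2 (chr8:92852837-92852857, plus strand): tgtaccctcccgggTGCTGCT
Mmp15 (chr8:95374445-95374465, plus strand): actcaccgggccagGCTGCTA
Mmp17 (chr5:129606802-129606822, plus strand): tcctctgcacatcaTGCTGCT
Each of these UTRs held 1 match, and none was an 8mer.

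The libraries held 25777676 to 36159499 counts. When libraries were compared in pairs by chi-square, the value per degree of freedom was 7.64 to 11.8 within a group and 92.0 to 112 across groups, so no pair agreed within sampling noise and all 6 were kept. Levels are given as CPM, counts relative to the library total with totals scaled by TMM, and levels of different genes are compared only as CPM per kilobase of exon. The endothelial label was checked first. Of 13 endothelial markers, 12 passed the filter on low counts, with Pecam1 at 3554 and 2471 CPM and Cdh5 at 2169 and 2484 CPM in the NC and miR-497 means, while Sox17 had 1 count in all libraries together. Of these markers 7 were higher and 4 lower with miR-497, beside 23.8% and 26.0% of all tested genes. Their summed level ran from 9273 to 9993 CPM in NC and from 9125 to 9536 CPM with miR-497. The 6 leukocyte markers summed to 11.8 to 12.4 CPM in NC and 17.9 to 23.0 CPM with miR-497. Cd68 alone passed the test among them and Cd3e was listed at 0. The 8 fibroblast and mural markers summed to 197 to 212 and 209 to 251 CPM, and the 5 epithelial markers to 0.466 to 1.15 and 0.459 to 1.27 CPM. The part of these shifts in the results below was not tested.

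Of the 45 members, 27 passed the filter and entered the quasi-likelihood test of edgeR, in which p-values of 14661 genes were adjusted together by Benjamini-Hochberg. With miR-497, 10 were higher and 5 lower at an adjusted p under 0.05. These 15 are 55.6% of the tested members, beside 49.8% of all tested genes. The higher members made up 37.0%, beside 23.8% of all tested genes, and the lower members 18.5%, beside 26.0%. Their median log2 fold change was 0.15, against -0.02 over all genes tested. By family, 5 of 13 tested Mmp genes were higher and 1 lower, 4 of 13 Adamts genes were higher and 4 lower, and Timp2, the only Timp gene tested, was higher. The groups did not overlap for 14 of the 27 (51.9%), beside 57.4% of all tested genes. The share of members called is close to the background of this comparison, so what follows is about which members moved and by how much. In bulk RNA, fewer cells that express a gene and less RNA per cell cannot be told apart.

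**Figure D1:**
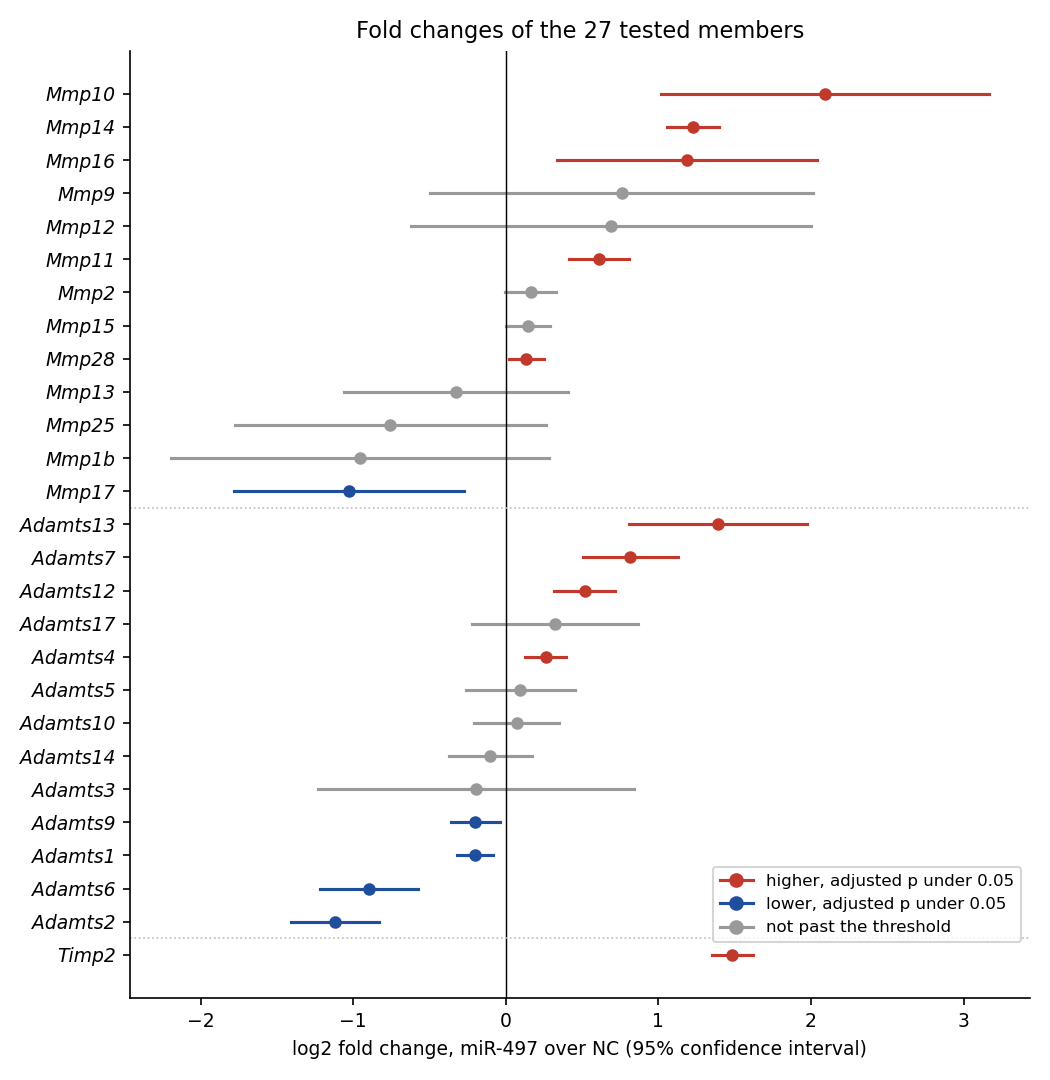
log2 fold change (miR-497 over NC) of the 27 tested members with 95% confidence intervals from edgeR, grouped by family and ordered within it; red and blue mark members past an adjusted p of 0.05. Timp2 and Mmp14 have narrow intervals far from 0, at 1.48 and 1.23, whereas the intervals of weakly expressed genes such as Mmp10 are several times wider.

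The inhibitor Timp2 had the largest fold change of the tested members after Mmp10. Timp2 (ENSMUSG00000017466, chr11:118301069-118355740, minus strand) stood at 133, 137 and 137 CPM with NC and at 419, 369 and 351 CPM with miR-497. Every miR-497 library was far above every NC library. The log2 fold change was 1.48 (edgeR adjusted p = 1.5e-11, SE 0.0634), a 2.80-fold rise. Its length-scaled level was 34.9 ± 0.578 CPM per kb of merged exons with NC and 97.5 ± 9.07 CPM per kb with miR-497 (SD, n = 3). This was the highest mean of the tested members in both groups, but with only exon bases outside other genes as length, Adamts4 stood above Timp2 in NC, at 40.0 against 34.9 CPM per kb. Its 3′ UTR of 2630 bases held no 7mer or 8mer match to the seed.

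The other inhibitors could not be measured. Timp1, Timp3 and Timp4 were listed at 0 in all 6 libraries. Each lies inside a synapsin gene on the opposite strand: Timp1 (chrX:20870166-20874735) in Syn1, Timp3 (chr10:86300372-86349506) in Syn3 and Timp4 (chr6:115241892-115252205) in Syn2. The synapsin genes themselves had 60 to 804 counts per library. Mmp19 (chr10:128790910-128800824), listed at 0 as well, lies inside Gm47093 and Tmem198b. Among protein-coding genes in the table, 721 of 733 (98.4%) whose exons lie wholly inside genes of the opposite strand were at 0 in all libraries. Of 14190 genes with no exon base inside another gene, 24.2% were at 0. A 0 of these 4 members is therefore not read as a level. Opposite-strand exons cover 0% of the exon bases of Timp1, which was at 0 all the same.

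**Figure D2:**
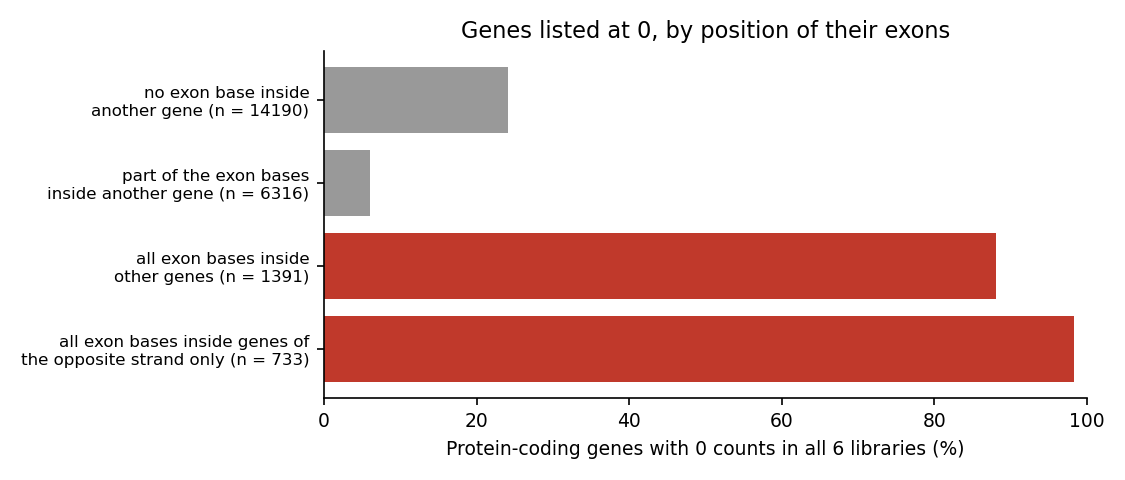
Share of protein-coding genes with 0 counts in all 6 libraries (x axis, percent), by whether their exons lie inside the span of another gene; n is the number of genes. The share is 24.2% for genes clear of others and 98.4% for genes wholly inside opposite-strand genes, the class that holds Timp1, Timp3, Timp4 and Mmp19.

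The membrane-anchored protease Mmp14 rose together with Timp2, whereas its substrate pro-MMP2, encoded by Mmp2, did not pass the test. Mmp14 (ENSMUSG00000000957, chr14:54431612-54445364, plus strand) was at 27.3, 28.8 and 24.1 CPM in NC and at 67.6, 59.7 and 61.0 CPM with miR-497. The groups were well apart, and the log2 fold change was 1.23 (edgeR adjusted p = 2.4e-09, SE 0.0807), or 2.34-fold. Mmp2 (ENSMUSG00000031740, chr8:92827291-92853420, plus strand), gelatinase A, had 30.9, 31.9 and 34.1 CPM in NC and 38.7, 37.1 and 32.7 CPM with miR-497. One miR-497 library lay between the NC values. Its log2 fold change of 0.16 had a 95% interval from -0.0033 to 0.33 (edgeR adjusted p = 0.096), which leaves out changes of the size seen for Mmp14 and Timp2. Mmp2 passed the threshold with upper-quartile scaling (0.21, adjusted p = 0.03) and without miR-497 replicate 3 (0.23, adjusted p = 0.02).

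These 3 gene products meet on the cell surface, so their length-scaled levels were set against each other within each library. Mmp14 over Mmp2 was 0.500, 0.511 and 0.400 with NC and 0.989, 0.910 and 1.06 with miR-497. Timp2 over Mmp2 was 3.74, 3.71 and 3.48 with NC and 9.38, 8.60 and 9.29 with miR-497. For Timp2 over Mmp14 the values were 7.48, 7.27 and 8.71 with NC and 9.48, 9.46 and 8.80 with miR-497. Both genes thus gained on Mmp2 in every miR-497 library, while the gap between the groups in Timp2 over Mmp14, from 8.71 to 8.80, was narrower than the spread within either group. These ratios concern transcripts and depend on the annotated exon lengths. Whether reads in introns were counted is not given in the sources used here and was not tested. Zeros went with lying inside the span of an opposite-strand gene (98.4% at 0), also for Timp1, which no opposite-strand exon covers. Ratios between genes may therefore depend on intron length as well, and they are not read as ratios of transcript number.

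The start-site regions of this pair are shown because the 2 genes rose together. They are RefSeq promoters (GRCm38.p6), 250 bases before to 50 after the start, with matches to the GC box GGGCGG, on either strand, in capitals:
Mmp14 (chr14:54431348-54431647, plus strand): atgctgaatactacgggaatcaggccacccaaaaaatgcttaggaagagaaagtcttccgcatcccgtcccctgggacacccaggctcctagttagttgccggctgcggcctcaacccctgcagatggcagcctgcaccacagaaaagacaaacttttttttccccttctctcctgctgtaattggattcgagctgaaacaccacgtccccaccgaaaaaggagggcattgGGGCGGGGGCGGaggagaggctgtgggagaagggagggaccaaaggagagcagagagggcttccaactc
Timp2 (chr11:118355362-118355661, minus strand): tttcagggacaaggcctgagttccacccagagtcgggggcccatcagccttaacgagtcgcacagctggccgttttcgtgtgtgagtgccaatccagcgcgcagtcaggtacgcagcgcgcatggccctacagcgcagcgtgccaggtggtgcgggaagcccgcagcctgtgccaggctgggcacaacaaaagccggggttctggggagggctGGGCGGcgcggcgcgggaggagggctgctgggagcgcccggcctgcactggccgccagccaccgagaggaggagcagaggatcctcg

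The Mmp14 window held 2 GC boxes and the Timp2 window 1. The motif was present in 12 of the 19 promoters matched to tested members (63.2%) and in 35.7% of all 32851 promoters of the same length. Of promoters matched to higher members 5 of 7 held it, and of those matched to lower members 3 of 3. The AP-1 motif TGANTCA, searched on both strands, was in neither window. It was in 4 of the 19 (21.1%) and in 7.81% of all promoters. For both motifs, all promoters include those of genes not tested here, so these shares are not for like sets. RefSeq promoters were matched for 31 of the 45 members.

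**Figure D3:**
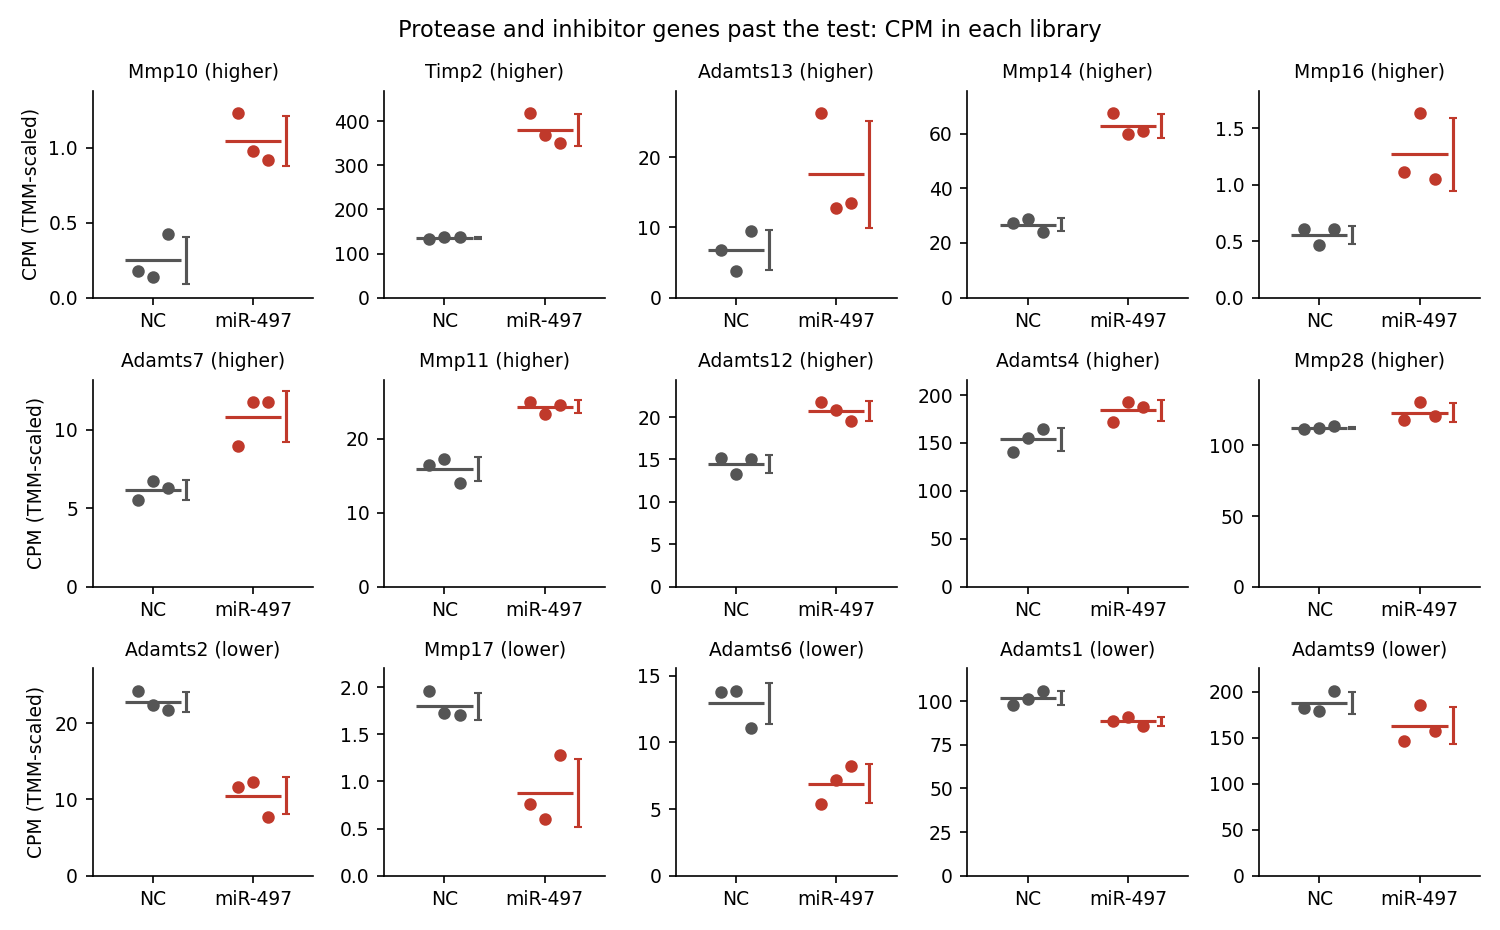
CPM in each library (points; y axes start at 0 and differ between panels) for the 15 members past the test, with the mean (horizontal bar) and SD (whisker, n = 3) of each group. The groups overlap only for Adamts9, where 1 miR-497 library at 186 CPM is above NC libraries at 179 and 183 CPM.

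Among the other tested Mmp genes, Mmp10, Mmp11, Mmp16 and Mmp28 were higher and Mmp17 lower. Mmp11 (ENSMUSG00000000901), stromelysin-3, a secreted protease that is activated inside the cell by furin, had 16.4, 17.2 and 14.1 CPM in NC and 25.0, 23.3 and 24.6 CPM with miR-497. The groups did not overlap, and the log2 fold change was 0.61 (edgeR adjusted p = 3.9e-05, SE 0.0937). Opposite-strand exons of Chchd10 cover 5.58% of its exon bases.

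Mmp10 (ENSMUSG00000047562), stromelysin-2, had 6, 5 and 12 counts in NC and 31, 31 and 28 counts with miR-497. This was the largest fold change of the tested members, 2.09 on the log2 scale (edgeR adjusted p = 0.0024, SE 0.507), but it rests on few reads. The value was 1.78 without NC replicate 2 (edgeR adjusted p = 0.021) and 2.70 without NC replicate 3. Its paralog Mmp3, stromelysin-1, was below the filter, with 3, 5 and 1 counts in NC and 5, 18 and 14 counts with miR-497. How reads shared by such paralogs were counted is not given in the sources used here.

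Mmp16 (ENSMUSG00000028226), another transmembrane Mmp, had 20, 17 and 17 counts in NC and 28, 52 and 32 counts with miR-497. Its log2 fold change was 1.19 (edgeR adjusted p = 0.021, SE 0.402), with no overlap between the groups. The adjusted p rose to 0.077 without NC replicate 2 and to 0.12 without miR-497 replicate 2.

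Mmp17 (ENSMUSG00000029436), which is held at the membrane by a lipid anchor, was the only Mmp gene called lower, with 65, 63 and 48 counts in NC and 19, 19 and 39 counts with miR-497. The log2 fold change was -1.03 (edgeR adjusted p = 0.024, SE 0.356). The call was lost without NC replicate 1 (0.065), NC replicate 2 (0.052), miR-497 replicate 1 (0.075) or miR-497 replicate 2 (0.099), in each case with edgeR's adjusted p given.

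Mmp28 (ENSMUSG00000020682), epilysin, was the best-expressed Mmp gene per length, at 29.0 CPM per kb with NC. Its values were 112, 112 and 113 CPM in NC and 118, 131 and 121 CPM with miR-497. That difference of 0.13 on the log2 scale (SE 0.0541) barely passed, with an edgeR adjusted p of 0.049. The adjusted p was 0.15 without NC replicate 1, 0.15 without NC replicate 2, 0.061 without NC replicate 3, 0.23 without miR-497 replicate 2, 0.058 without miR-497 replicate 3, 0.052 with limma voom and 0.12 with no filter on low counts. Exons of 1700020L24Rik on the opposite strand cover 12.0% of its exon bases.

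Mmp15, a transmembrane relative of Mmp14, had 73.3, 69.8 and 74.0 CPM in NC and 82.5, 85.7 and 72.2 CPM with miR-497. The groups overlapped and the log2 fold change was 0.15 (95% interval 0.0035 to 0.29, edgeR adjusted p = 0.083). It passed with upper-quartile scaling (0.018), with a minimum mean count of 50 (0.049) and without miR-497 replicate 3 (0.011). The other 5 tested Mmp genes, Mmp1b, Mmp9, Mmp12, Mmp13 and Mmp25, had mean levels from 0.210 to 1.56 CPM. Their log2 fold changes ran from -0.96 to 0.76 with edgeR adjusted p-values from 0.19 to 0.46, and the intervals all span 0. Mmp9, gelatinase B and the close relative of Mmp2, had 4 to 21 counts per library, so a change of 2-fold was not detectable at this depth (95% interval -0.50 to 2.01).

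The Adamts genes split evenly. Adamts4 and Adamts1 differed in direction. Adamts4 (ENSMUSG00000006403), which cuts aggrecan and versican, had 141, 156 and 165 CPM in NC and 172, 193 and 187 CPM with miR-497. The groups did not overlap and the log2 fold change was 0.26 (edgeR adjusted p = 0.0025, SE 0.0633). Adamts1 (ENSMUSG00000022893), which also cuts versican and inhibits angiogenesis, had 98.0, 101 and 106 CPM in NC and 88.5, 90.9 and 85.7 CPM with miR-497. It fell by 0.20 on the log2 scale (edgeR adjusted p = 0.0059, SE 0.0559), again without overlap. Adamts5, the other main aggrecanase, was at 5.68 ± 0.989 and 6.05 ± 0.285 CPM (SD, n = 3) and its difference of 0.10 did not pass (95% interval -0.26 to 0.45). Acan, the aggrecan gene, had 2 counts in all libraries together and was not tested.

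Adamts2 had the largest fall of the family. Adamts2 (ENSMUSG00000036545, chr11:50602084-50807573, plus strand) removes the amino-terminal propeptide of fibrillar procollagens. It was at 24.3, 22.5 and 21.8 CPM in NC and at 11.6, 12.3 and 7.68 CPM in miR-497 libraries, a log2 fold change of -1.12 (edgeR adjusted p = 3.1e-06, SE 0.136). All miR-497 values were below 13 CPM and all NC values above 21 CPM. The other 2 procollagen N-proteinases did not pass: Adamts14 was at 11.4 ± 1.30 and 10.7 ± 1.33 CPM (log2 fold change -0.10, edgeR adjusted p = 0.54), and Adamts3 had 10 to 29 counts per library (-0.20, 95% interval -1.23 to 0.84).

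Adamts6 (ENSMUSG00000046169) had 13.8, 13.9 and 11.1 CPM in NC and 5.37, 7.15 and 8.24 CPM in miR-497 libraries, without overlap. It fell by 0.90 on the log2 scale (edgeR adjusted p = 1e-04, SE 0.152). Adamts10, its nearest relative in the family, had 24.6 to 34.4 CPM in NC and 24.0 to 37.0 CPM in miR-497 libraries and did not pass (0.07, 95% interval -0.21 to 0.35). The intervals of the 2 genes do not overlap; the difference between them was not tested.

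Adamts9 (ENSMUSG00000030022), which cuts versican and is known in endothelial cells, had 183, 179 and 201 CPM in NC and 146, 186 and 158 CPM with miR-497. The groups overlapped, and the log2 fold change was -0.20 (edgeR adjusted p = 0.035, SE 0.0745). Its call ended without NC replicate 3 (0.17), without miR-497 replicate 1 (0.19), without miR-497 replicate 3 (0.10), with DESeq2 size factors (0.053) and with upper-quartile scaling (0.088). Opposite-strand exons cover 12.0% of its exon bases.

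Adamts13 and the pair Adamts7 and Adamts12 rose. Adamts13 (ENSMUSG00000014852, chr2:26973416-27009628, plus strand), the protease of von Willebrand factor, had 6.85, 3.81 and 9.52 CPM in NC and 26.3, 12.8 and 13.5 CPM with miR-497. The log2 fold change was 1.39 (edgeR adjusted p = 0.00045, SE 0.275). Libraries of one group differed by more than 2-fold, and the value was 0.98 without miR-497 replicate 1, which held the highest level. Its substrate gene Vwf was also higher, at 4.17 ± 0.639 CPM with NC and 7.29 ± 1.33 CPM with miR-497 (SD, n = 3; edgeR adjusted p = 0.0016).

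Adamts7 (ENSMUSG00000032363) and Adamts12 (ENSMUSG00000047497) are related proteases that cut cartilage oligomeric matrix protein. The gene of this substrate, Comp, had 49 counts over the 6 libraries together and did not pass (-0.14, edgeR adjusted p = 0.89). Adamts7 had 5.49, 6.71 and 6.29 CPM in NC and 8.95, 11.8 and 11.8 CPM in miR-497 libraries, with a log2 fold change of 0.82 (edgeR adjusted p = 0.00018, SE 0.147). Adamts12 had 15.2, 13.2 and 15.0 CPM in NC and 21.8, 20.8 and 19.5 CPM in miR-497 libraries, with 0.52 (edgeR adjusted p = 0.00022, SE 0.0949). Neither pair of groups overlapped. Adamts17, at 2.34 and 2.92 CPM, did not pass (0.32, 95% interval -0.22 to 0.87).

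The remaining 18 members were below the filter. Apart from the 4 enclosed genes, Mmp7, Mmp8 and Mmp20 were listed at 0 in all libraries, where 3 counts correspond to 0.0830 to 0.116 CPM (this limit covers counting error only). Mmp8 has no exon base inside another gene; for Mmp7 and Mmp20 the share is 49.5% and 61.5%. The other 11, Mmp3, Mmp21, Mmp23, Mmp24, Mmp27, Adamts8, Adamts15, Adamts16, Adamts18, Adamts19 and Adamts20, had between 1 and 64 counts over the 6 libraries together.

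**Figure D4:**
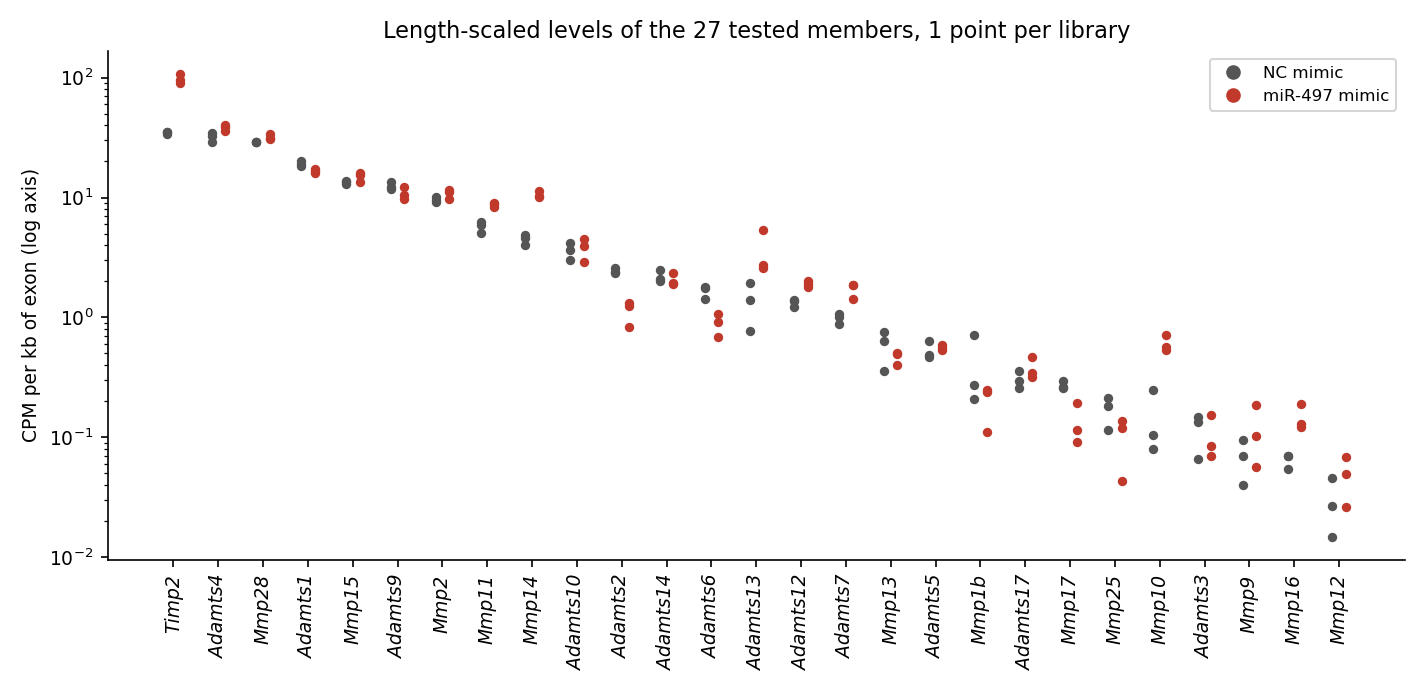
Length-scaled level (CPM per kb of exon, log axis) of the 27 tested members in each of the 6 libraries, ordered by the NC mean. Levels span more than 3 orders of magnitude; by these merged exon lengths Timp2, Adamts4, Mmp28 and Adamts1 lead in both groups, and Mmp14 moves from the ninth to the eighth place.

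Summed over the tested members, Mmp genes stood at 64.1, 64.0 and 63.7 CPM per kb in NC and at 79.3, 81.1 and 75.1 CPM per kb with miR-497. For Adamts genes the sums were 75.1, 77.6 and 81.7 in NC and 79.1, 85.1 and 81.4 in miR-497 libraries, which overlap. Timp2 alone rose 2.80-fold. Sums with other lengths are in the closing section. Whether reads in introns were counted is not given and was not tested, so sums and places per kb of exon may depend on intron length as well. Per kb of merged exons, Timp2, Adamts4, Mmp28 and Adamts1 took the leading places in both groups. By this length Timp2 was above Adamts4 in every NC library (34.21, 35.17 and 35.25 against 29.28, 32.34 and 34.25 CPM per kb). With only exon bases outside other genes as length, the NC means stood the other way, at 34.9 against 40.0 CPM per kb. The order of these 2 genes in NC thus depended on the length used. With the longest transcript as length, Adamts9 stood above Adamts1 in both groups, at 23.4 against 20.8 CPM per kb in NC.

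Matches to the miR-497-5p seed were about as common among members as among all genes. A 7mer or 8mer match was carried by 7 of the 27 tested members (25.9%) and by 28.1% of the 12859 tested genes with a 3′ UTR. Of the matches printed above, those of Adamts4 and Adamts12 are in members that were higher, that of Mmp17 in a member that was lower, and those of Adamts5, Adamts14, Mmp2 and Mmp15 in members that did not pass the test. The other 4 lower members, Adamts1, Adamts2, Adamts6 and Adamts9, held no such match in the longest UTR. With the shortest annotated UTR, 5 tested members had a match. A match of letters does not show that the site is used.

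Genes around this protease system were read from the same test. Of all tested genes 23.8% were higher and 26.0% lower (median log2 fold change -0.02), the background of each list below. The lists are small and were not tested as sets. Of 11 genes for precursor activation and the plasminogen system, 8 were tested, and 5 were lower and 2 higher (median log2 fold change -0.23). Plat, tissue plasminogen activator, fell from 179 ± 6.30 to 87.9 ± 1.92 CPM (log2 fold change -1.02, edgeR adjusted p = 1.1e-10; mean ± SD, n = 3). Plaur, the urokinase receptor, fell from 347 ± 12.6 to 199 ± 11.4 CPM (-0.81, edgeR adjusted p = 4.9e-09). Of the proprotein convertases, Pcsk6 rose (0.72, edgeR adjusted p = 4.2e-06) and Pcsk7 fell (-0.42, edgeR adjusted p = 3.5e-05).

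Of 11 further inhibitors, clearance receptors and cell-surface partners, 8 were tested. With edgeR 5 were higher and 0 lower (median 0.55), beside 23.8% and 26.0% of all tested genes. The list mixes these kinds of genes, so the count is not one of inhibitors. The other 3, Reck (-0.20), Pzp (-1.31) and Spock2 (0.54), did not pass (edgeR adjusted p = 0.32, 0.059 and 0.35). Without adjustment 1 was lower at p under 0.05; DESeq2 called 0 lower and limma voom 1, and leaving out miR-497 replicate 2 gave 1. Cd44, a hyaluronan receptor that docks MMPs, rose from 47.3 ± 3.13 to 94.2 ± 17.3 CPM (log2 fold change 0.99, edgeR adjusted p = 3.7e-07; mean ± SD, n = 3). Lrp1, the endocytic receptor that clears TIMPs and several of these proteases, rose from 135 ± 8.88 to 229 ± 25.8 CPM (0.76, edgeR adjusted p = 2.1e-07). Mrc2, which takes up cleaved collagen, and Papln, an ADAMTS-like matrix protein, rose by 0.57 and 0.59 (edgeR adjusted p = 1.4e-05 and 0.0022).

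Other proteases of the same superfamily mostly did not pass. Of 20 tested genes of Adam, astacin, pappalysin and Adamts-like families, 1 was higher and 2 were lower (median -0.08), and counts under other settings ran from 1 to 3 higher and from 1 to 4 lower. Among these, leaving out NC replicate 3 gave 2 higher and 1 lower, and leaving out NC replicate 1 or miR-497 replicate 3 gave 1 lower. Adam15, a disintegrin metalloprotease of endothelial cells, fell by 0.25 on the log2 scale (edgeR adjusted p = 0.0064). Of its exon bases, 20.6% lie under opposite-strand exons and 89.1% inside the span of other genes, so its level is uncertain. Its adjusted p was just above the threshold without NC replicate 3 (0.05 as rounded).

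Matrix substrates changed both ways, with 4 of 14 tested genes higher and 3 lower (median -0.04), shares near those of all tested genes. Sparc fell from 5791 ± 270.4 to 3182 ± 161 CPM (log2 fold change -0.86, edgeR adjusted p = 1.2e-08; mean ± SD, n = 3). Fn1, fibronectin, rose from 6186 ± 541 to 8832 ± 537 CPM (0.51, edgeR adjusted p = 2.2e-05), and Thbs2 rose by 0.64 (edgeR adjusted p = 3.5e-06). Vcan, versican, the shared substrate of Adamts1, Adamts4 and Adamts9, rose by 0.38 (edgeR adjusted p = 0.037, SE 0.145). That call ended without NC replicate 1 (0.11), NC replicate 3 (0.063), miR-497 replicate 1 (0.25) or miR-497 replicate 2 (0.096), and with limma voom (0.072); these are adjusted p-values.

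Of 14 AP-1 and Ets transcription factors, which are known to act on protease promoters, 8 were lower and 4 higher (median -0.21). Among all tested genes, 26.0% were lower and 23.8% higher. Fosl1 (-0.74, edgeR adjusted p = 9.6e-05), Jund (-0.52, edgeR adjusted p = 7e-07) and Etv4 (-0.50, edgeR adjusted p = 1e-06) fell, and Ets2 rose (0.53, edgeR adjusted p = 4.1e-07). More than 50% of the exon bases of Fosl1 and Jund lie under opposite-strand exons (57.2% and 52.6%), so without knowing the strand setting their values are uncertain.

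**Figure D5:**
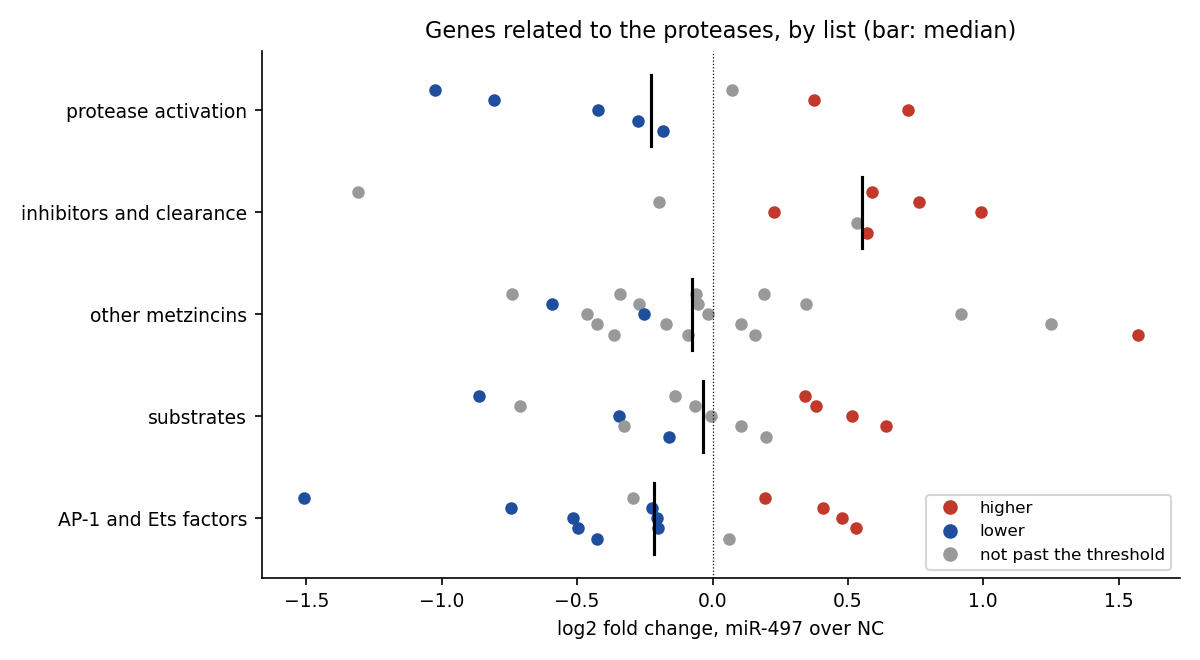
log2 fold change (miR-497 over NC) of each tested gene of 5 lists of related genes, 1 point per gene, with the list median as a black bar; red and blue mark an adjusted p under 0.05. Points of the activation and transcription factor lists lie mostly below 0. The 5 called genes of the inhibitor and clearance list, which also holds cell-surface partners, lie above 0.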

How the data were processed

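The deposited table holds raw counts of reads per Ensembl gene that the authors had not normalized. Per the submitters' processing notes, STAR 2.5.4b, featureCounts, Subread 1.6.1 and edgeR 3.32.1 were used with GRCm38. The annotation release, strand setting, kind of feature counted and handling of multiply aligned reads are not given in the sources used here. Groups and replicate numbers came from the sample titles.

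Symbols, exons and 3′ UTRs came from GENCODE M21 (GRCm38), which matched 55141 of 55401 identifiers. Counts were filtered with filterByExpr (minimum count 10, minimum total 15), scaled by TMM and tested with the quasi-likelihood F-test of edgeR 4.0.16 in R 4.3.3, in a model of group alone. Every p-value is 2-sided, and calls use a Benjamini-Hochberg adjusted p under 0.05 across the whole tested table. SEs were obtained from each log2 fold change and the root of its F statistic. The test was tried on simulated counts with a common dispersion, evenly up and down changes and far fewer changed genes than were called here. That trial therefore does not check the TMM scaling or the error rate for this comparison. Length-scaled level is CPM per 1000 bases of merged exons.

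The alternatives were DESeq2 size factors, upper-quartile scaling, no filter, a mean count of at least 50, DESeq2 1.42.0, voom from limma 3.58.1, the replicate number as a block, each library left out, and other lengths and UTRs. Members and gene lists were chosen with earlier results of these data known. All members are accounted for; of each related list, the text names the 4 called genes with the largest change and a mean log2 CPM of at least 2. Vwf and the other markers, Acan, Comp, Mmp3, Reck, Pzp, Spock2 and the synapsin genes were named after their values were seen.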

Additional observations from a re-analysis of the deposited data

How the results depend on the processing

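Over 13 alternatives, 8 to 12 members were higher and 3 to 5 lower, against 10 and 5; when single libraries were left out, 8 to 11 were higher and 3 to 4 lower. Of 192 pairs of called member and alternative, 173 kept direction and call, and 11 of 15 called members kept theirs in every alternative that could be fitted; the exceptions were Adamts9, Mmp16, Mmp17 and Mmp28. Without miR-497 replicate 1, 3 members were lower. Of the members that did not pass, 3 changed sign when a library was left out. Over the 6 such fits Adamts3 ran from -0.59 to 0.0264 (0.0247 in the other fit above 0), Adamts10 from -0.0687 to 0.22 (-0.0309 in the other fit below 0) and Adamts14 from -0.21 to 0.0010. The cause was not tested.

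With the replicate number as a block, 9 members were higher and 5 lower, and Mmp28 no longer passed (edgeR adjusted p = 0.10). Between the groups, deviations from the group mean of libraries sharing a number correlated at -0.12, -0.035 and -0.13, and no library correlated best with its own number, so the numbers were not taken to pair the samples.

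For other metzincins, higher genes numbered 2 with DESeq2 size factors, 3 with upper-quartile scaling, 2 with a mean count of at least 50 and 3 with DESeq2 (1 to 2 when single libraries were left out), and lower genes 4 with no filter (1 to 3 when single libraries were left out). For inhibitors and clearance, limma voom called 1 lower (0 to 1 when single libraries were left out).

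Summed levels depended on the length used. With the longest transcript they were 98.9 and 102 CPM per kb for Adamts, 74.3 and 95.2 for Mmp (NC, miR-497) and 36.6 for Timp2 in NC. With only exon bases outside other genes, chosen after seeing the data, they were 90.4 and 95.2 for Adamts and 68.5 and 83.6 for Mmp. With DESeq2 size factors the NC sum of Mmp genes was 63.5. Members under about 50 counts per library, such as Mmp10 and Mmp16, are limited by depth.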
